A study of Mus musculus with 6 samples.

Results

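AP-1 and immediate early genes were followed in ribosome-bound RNA of lung pericytes of control and Yap1,Wwtr1 iPCKO mice. The mutants were made to lose the transcriptional coregulators YAP1 and TAZ in these cells. The set holds 10 genes named by symbol, Fos, Fosb, Fosl2, Jun, Junb, Jund, Egr1, Egr3, Ier2 and Atf3, out of 21603 genes with a value in each sample. It was chosen with earlier results of these data known. All 10 were found by their Ensembl identifiers in the GENCODE M21 annotation of the mouse genome.

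The samples were lungs of C57BL/6 mice at postnatal day (P) 8, 3 control and 3 Yap1,Wwtr1 iPCKO. Controls had 1 floxed allele of Yap1 and 1 of Wwtr1, the gene of TAZ, beside wild-type alleles (Yap1+/-;Wwtr1+/- in the labels), and mutants were floxed for all copies (Yap1-/-;Wwtr1-/-). Both groups carried Pdgfrb(BAC)-CreERT2, a tamoxifen-inducible Cre driven from the gene of platelet-derived growth factor receptor beta in a bacterial artificial chromosome, and a floxed Rpl22 allele that adds an HA tag to ribosomes after recombination (RiboTag). Both groups also received tamoxifen from P0 to P2. By genotype, the comparison is therefore between recombined cells with a single intact copy of each gene and recombined cells with none. It covers any cell in which this driver is active, and the sexes were not separated. Whether every tagged cell had lost all floxed copies cannot be read from these values. RNA was taken from snap-frozen lungs by immunoprecipitation with an anti-HA antibody.

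AP-1 is a dimer of basic leucine zipper (bZIP) proteins, formed by JUN proteins with each other or with FOS proteins, that binds short palindromic elements in promoters and enhancers. Immediate early genes are transcribed within minutes of a stimulus such as growth factors, stretch or tissue handling, without new protein synthesis, mostly through serum response factor (SRF) with its ETS partners and through CREB at cAMP response elements. Their mRNAs are short-lived, so levels depend on the state of a tissue shortly before it is frozen. In several cell types AP-1 is known to share enhancers with the TEAD factors through which YAP1 and TAZ act.

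Promoters are shown to describe the letters before the start sites of these genes, and their relation to the levels was not tested. RefSeq promoters on GRCm38.p6 were matched for 7 of the 10 members, and the 250 bases before the start site of 3 members that were higher in every mutant sample than in every control, together with Jun and Atf3, which were not, are given 5′ to 3′ on the strand of the gene. Capitals mark the short cAMP response element, CGTCA or its reverse complement TGACG. The windows are chr12:85473640-85473889 on the plus strand for Fos, chr7:19310046-19310295 on the minus strand for Fosb, chr8:84978749-84978998 on the minus strand for Junb, chr4:95052223-95052472 on the minus strand for Jun and chr1:191183334-191183583 on the minus strand for Atf3.
Fos: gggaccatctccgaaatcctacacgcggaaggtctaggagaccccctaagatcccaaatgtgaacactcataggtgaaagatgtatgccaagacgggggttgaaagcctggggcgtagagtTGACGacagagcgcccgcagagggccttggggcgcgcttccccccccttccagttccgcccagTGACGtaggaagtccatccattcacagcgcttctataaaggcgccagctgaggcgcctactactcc
Fosb: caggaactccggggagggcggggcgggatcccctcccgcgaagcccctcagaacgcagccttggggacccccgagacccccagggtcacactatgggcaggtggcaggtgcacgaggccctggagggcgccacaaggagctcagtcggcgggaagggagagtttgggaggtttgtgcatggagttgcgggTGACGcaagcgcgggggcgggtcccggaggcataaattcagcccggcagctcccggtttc
Junb: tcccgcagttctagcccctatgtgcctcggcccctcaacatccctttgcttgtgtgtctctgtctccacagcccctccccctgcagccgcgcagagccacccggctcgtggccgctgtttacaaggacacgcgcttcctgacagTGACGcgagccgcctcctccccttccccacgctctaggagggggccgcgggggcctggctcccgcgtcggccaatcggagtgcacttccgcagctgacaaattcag
Jun: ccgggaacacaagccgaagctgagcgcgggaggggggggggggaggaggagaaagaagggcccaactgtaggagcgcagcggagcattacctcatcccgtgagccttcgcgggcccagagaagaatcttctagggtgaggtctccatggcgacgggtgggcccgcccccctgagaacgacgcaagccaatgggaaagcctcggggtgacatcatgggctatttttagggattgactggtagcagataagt
Atf3: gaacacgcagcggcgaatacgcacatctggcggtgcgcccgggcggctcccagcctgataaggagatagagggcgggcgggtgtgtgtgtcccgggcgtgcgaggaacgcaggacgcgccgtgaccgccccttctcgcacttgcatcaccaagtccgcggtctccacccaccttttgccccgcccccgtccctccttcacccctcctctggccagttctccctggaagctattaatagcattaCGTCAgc

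The short element was present in 4 of the 7 member promoters, those of Fos, Fosb, Junb and Atf3, compared with 17.8% of 32851 mouse promoter windows of the same length. In Fos it occurred at 129 to 125 and at 66 to 62 bases before the start site, in Fosb at 60 to 56, in Junb at 106 to 102 and in Atf3 at 7 to 3. The full palindrome TGACGTCA, which contains the short element, was in none of the 7 windows and in 1.55% of all promoters. None of the 7 held the CArG box bound by SRF (1.47% of all promoters), the AP-1 element TGANTCA (6.75%) or the TEAD element GGAATG (12.6%), each searched on both strands. These matches describe letters in a short window. Only exact strings were searched, so variants such as tgacatca in the Jun window were not counted. The Jund window ends at 70697738 of chromosome 8, while the gene measured here starts at 70698949. Egr1, Egr3 and Ier2 had no matched promoter, and bases farther than 250 from a start site were not searched.

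Expression is given as the authors' RPKM, a read count scaled to exon length and library size. Each value is relative to its library, and levels of different genes compare only as far as the unstated exon lengths allow. In control pericytes Jund and Jun had the highest levels of the set, 51.3 ± 19.1 and 46.5 ± 9.11 RPKM (SD, n = 3), and their ranges overlapped. Ier2, Junb, Egr1, Fosl2 and Fos followed with means between 8.58 and 15.5 RPKM, and neighbours in that order did not differ beyond their spread. Atf3 was lower, at 4.12 ± 1.71 RPKM. Fosb and Egr3 stayed below 1 RPKM in every control sample. In mutants Jund remained the most abundant member, at 64.0 ± 6.38 RPKM, followed by Jun with 42.3 ± 5.06 RPKM and Junb with 29.7 ± 3.94 RPKM.

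**Figure D1:**
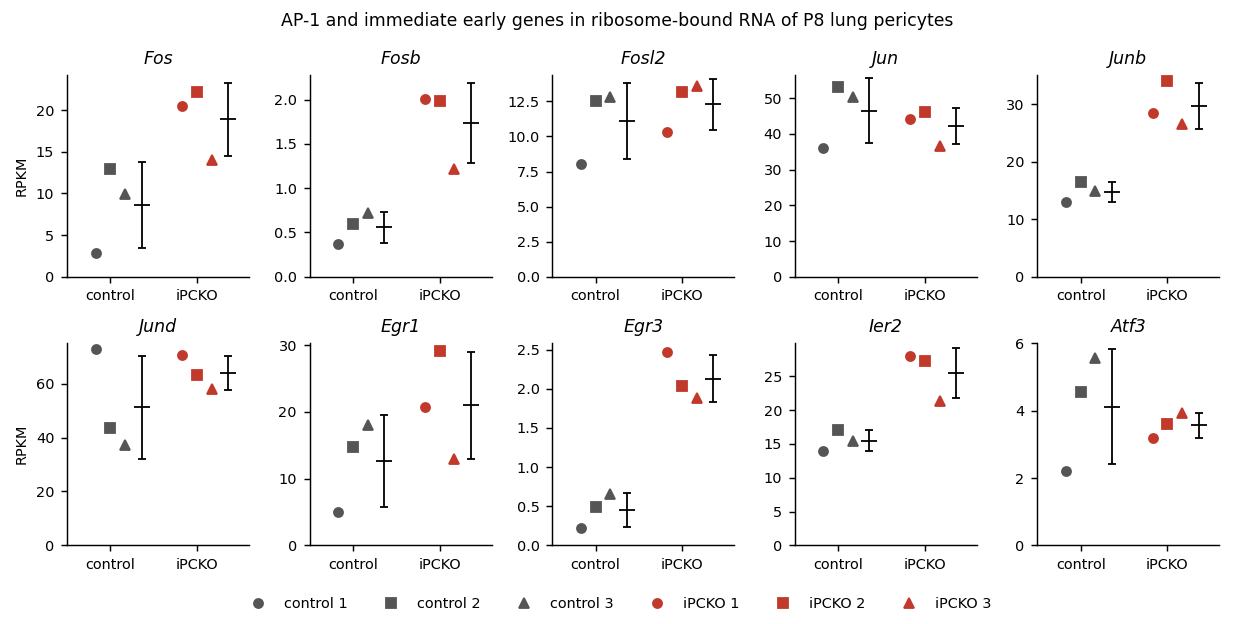
RPKM of each member in the 3 control samples (grey) and the 3 Yap1,Wwtr1 iPCKO samples (red), with symbols giving the sample number and the bar beside them the mean and SD; each panel has its own axis from 0. Mutant samples lie above all controls for Fos, Fosb, Junb, Egr3 and Ier2, and control 1 is the lowest control in every panel except Jund.

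Egr3, Fosb, Junb and Ier2 were higher in Yap1,Wwtr1 iPCKO pericytes, by 4.72, 3.11, 2.01 and 1.64 times in mean RPKM. Jun and Atf3 had lower means in mutants, at 0.91 and 0.867 times those of controls, but no member was called lower. Genes were tested with limma on log2(RPKM + 0.1) and called where the adjusted p-value was below 0.01 and the log2 fold change beyond ±0.5, and 4 of the 10 members passed. For comparison, 817 of the 12034 genes tested passed (6.79%), and 4.11% passed as higher in mutants. The 3 mutant values lay above the 3 control values in 5 of 10 members, Fos being the other one, while groups did not overlap in 35.5% of all genes tested. Fosb and Egr3 entered the test only because their mutant values reached 1 RPKM, so the member count carries that choice. With a sample left out 1 to 3 members passed, the fewest without iPCKO 2, and Junb passed each time. In this pooled RNA, fewer cells of a type and less RNA per cell cannot be told apart.

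**Figure D2:**
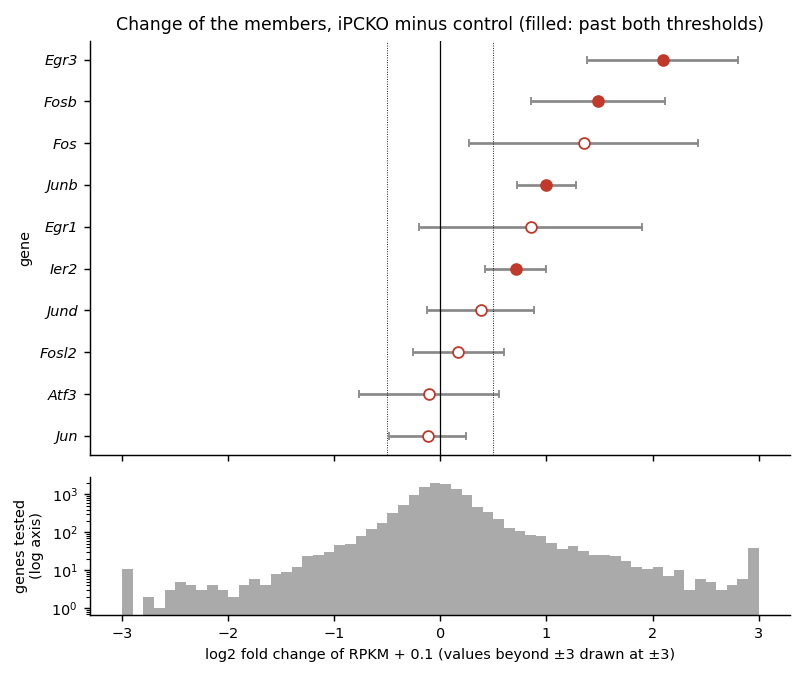
Log2 fold change of each member with its 95% confidence interval (upper panel; dotted lines at ±0.5, filled points past both thresholds) above the distribution of all 12034 genes tested (lower panel, log axis). The filled points are Egr3, Fosb, Junb and Ier2, and the intervals of Fos and Egr1 are the widest of the set.

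Among FOS proteins, which need a JUN partner to bind DNA, c-FOS is the classical immediate early factor. Fos (ENSMUSG00000021250, chromosome 12, 85473890 to 85477273 of GRCm38, plus strand) had 2.89, 12.9 and 9.93 RPKM in controls 1, 2 and 3, and 20.5, 22.2 and 14.0 RPKM in iPCKO 1, 2 and 3. Every mutant value was above every control value, but control 1 lay at a fraction of the other controls and iPCKO 3 close to control 2. The log2 fold change of 1.35 had a standard error of 0.47 (95% interval 0.27 to 2.43, adjusted p = 0.094), so the difference did not pass. Without control 1 it was 0.71 (adjusted p = 0.065).

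Fosb encodes a FOS protein that also exists as a shortened, long-lived form; the files give no isoforms. Fosb (ENSMUSG00000003545, chromosome 7, 19302696 to 19310051, minus strand) had 0.365, 0.596 and 0.715 RPKM in controls and 2.01, 1.98 and 1.22 RPKM in mutants. The groups were clearly apart, with iPCKO 3 nearest to the controls. At the exon length of the annotation these values stand for 45 to 155 reads in controls and 108 to 490 in mutants. Fosb rose by 1.49 on the log2 scale (standard error 0.28, 95% interval 0.85 to 2.12, adjusted p = 0.0087). The call is close to the threshold, since leaving out iPCKO 3 kept it (1.71, adjusted p = 0.009) but leaving out any of the other 5 samples ended it, at adjusted p-values between 0.015 and 0.042.

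Fosl2 encodes FRA-2, a FOS protein without the strong activation domain of c-FOS and FOSB. Its values were 8.02, 12.5 and 12.8 RPKM in controls and 10.3, 13.2 and 13.6 RPKM in mutants. In both groups sample 1 was the lowest, and the ranges overlapped. The log2 fold change was 0.17 (95% interval -0.26 to 0.6, adjusted p = 0.59), and -0.05 without control 1. Fosl1, which encodes the related FRA-1 and is no member, was at or near 0, with no more than 0.123 RPKM in any sample, and was too low to be tested.

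The JUN proteins can bind DNA as homodimers. c-JUN is a strong activator, whereas JUNB and JUND activate more weakly and can restrain growth. Jun had 36.1, 53.0 and 50.4 RPKM in controls and 44.2, 46.2 and 36.6 RPKM in mutants. The groups overlapped fully, and the log2 fold change of -0.12 had a 95% interval of -0.48 to 0.24 (adjusted p = 0.65). A rise of Jun of the size seen for Junb therefore lies outside the interval.

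Junb (ENSMUSG00000052837, chromosome 8, 84974484 to 84978718, minus strand) had 13, 16.4 and 14.9 RPKM in controls and 28.5, 34.1 and 26.5 RPKM in mutants. The lowest mutant value was well above the highest control value, and the spread was narrow in both groups, with the highest sample 1.26 times the lowest in controls and 1.29 times in mutants. Junb rose by 1.0 on the log2 scale (standard error 0.12, 95% interval 0.72 to 1.28, adjusted p = 0.0012). It passed the thresholds in each of 15 alternative fits, with log2 fold changes between 0.9 and 1.1. Of the 2301 exon bases annotated for Junb, 173 (7.52%) are also exon of Prdx2 on the opposite strand. Prdx2 itself differed by 0.17 (adjusted p = 0.28), with 67.9 ± 0.775 RPKM in controls and 76.9 ± 7.92 RPKM in mutants.

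Jund, expressed steadily in most quiescent cells, had 73.0, 43.7 and 37.1 RPKM in controls and 70.7, 63.3 and 58.0 RPKM in mutants. Control 1 was above all mutant samples while controls 2 and 3 were below all of them, and the log2 fold change was 0.38 (95% interval -0.13 to 0.88, adjusted p = 0.3). With a sample left out it ranged from 0.18 without control 3 (adjusted p = 0.69) to 0.66 without control 1 (adjusted p = 0.014). Annotated antisense genes share 52.6% of the exon bases of Jund and 7.28% of those of Jun. Neither antisense gene has a row in the files, and the strand setting used in counting is not given in the sources used here.

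The makeup of the FOS and JUN transcripts was compared as the share of each gene in the RPKM summed over Fos, Fosb, Fosl1, Fosl2, Jun, Junb and Jund, which was 132.8 ± 6.64 in controls and 169.1 ± 16.7 in mutants. Junb made up 9.74% to 11.8% of the sum in controls and 16.2% to 18.8% in mutants. Jun made up 27.1%, 38.1% and 40% in controls and 25.1%, 25.5% and 24.4% in mutants, so that its share was lower in every mutant. Its level overlapped (log2 fold change -0.12), while the sum that it is divided by was higher in every mutant than in every control. The Fos share ranged from 2.17% to 9.29% in controls and from 9.33% to 12.3% in mutants, while Jund had means of 38.5% and 37.9%. The shares of Junb, Jun, Fos and Fosb did not overlap between groups, with an exact permutation p of 0.1 each, the smallest that 3 against 3 samples allow, and 0.175 after Benjamini-Hochberg adjustment over 7 shares. For comparison, the RPKM of 35.5% of all genes tested did not overlap between groups. Shares of a sum also depend on each other. Junb had 0.36, 0.31 and 0.295 times the RPKM of Jun in controls and 0.646, 0.738 and 0.723 times in mutants (exact permutation p = 0.1, two-sided).

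**Figure D3:**
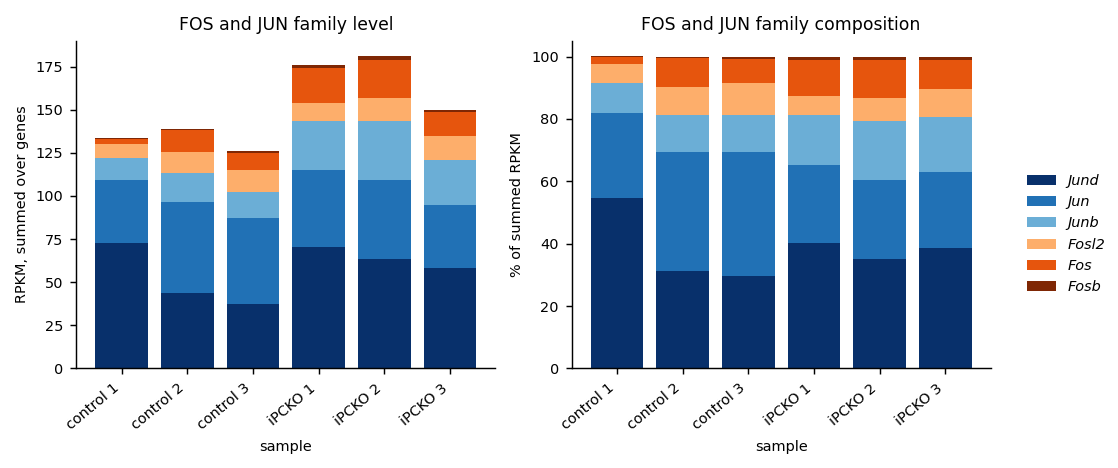
RPKM of the FOS and JUN family genes stacked for each of the 6 samples (left) and as percent of their sum, which also holds Fosl1 (right). Junb takes 16.2% to 18.8% in mutants and no more than 11.8% in controls, and Jund takes 54.8% in control 1.

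EGR1 and EGR3 are zinc finger factors induced by the same SRF-dependent route as c-FOS. Egr1 (ENSMUSG00000038418) had 4.92, 14.8 and 18.1 RPKM in controls and 20.8, 29.1 and 13 RPKM in mutants. Control 1 was again the lowest, and iPCKO 3 fell below controls 2 and 3. The log2 fold change of 0.85 had a 95% interval of -0.2 to 1.9 (adjusted p = 0.26) and was 0.28 without control 1.

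Egr3 (ENSMUSG00000033730, chromosome 14, 70077203 to 70082614, plus strand) had 0.215, 0.486 and 0.651 RPKM in controls and 2.47, 2.03 and 1.88 RPKM in mutants. All mutant values were more than 2 times the highest control value. In reads at the annotated exon length this is 19, 37 and 99 in controls against 230, 354 and 118 in mutants, and the shallow iPCKO 3 library still exceeded the deep control 3. Egr3 rose by 2.1 on the log2 scale (standard error 0.31, 95% interval 1.38 to 2.81, adjusted p = 0.0029). Leaving out iPCKO 2 or iPCKO 3 ended the call, with log2 fold changes of 2.12 and 2.18 and adjusted p-values of 0.014 and 0.011. Egr3 had 0.0437, 0.0328 and 0.036 times the RPKM of Egr1 in controls and 0.119, 0.0698 and 0.145 times in mutants. This ratio, too, was higher in every mutant sample (exact permutation p = 0.1).

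Ier2, a short intronless immediate early gene that encodes a nuclear protein without a bZIP domain (ENSMUSG00000053560, chromosome 8, 84661331 to 84662852, minus strand), had 13.9, 17.1 and 15.4 RPKM in controls and 28.0, 27.2 and 21.3 RPKM in mutants. The control values were close together and every mutant value lay above them. Ier2 rose by 0.71 on the log2 scale (standard error 0.13, 95% interval 0.42 to 1.0, adjusted p = 0.007). It passed without iPCKO 3 (0.83, adjusted p = 0.0042), but leaving out any of the other 5 samples gave 0.63 to 0.78 with adjusted p-values between 0.012 and 0.033.

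Atf3 encodes a bZIP factor of the ATF/CREB family that is induced by stress and often represses its targets. It had 2.22, 4.57 and 5.56 RPKM in controls and 3.19, 3.6 and 3.92 RPKM in mutants. The mutant values lay inside the control range, and the log2 fold change was -0.11 (95% interval -0.77 to 0.55, adjusted p = 0.84). Its sign depended on the control samples, being -0.49 without control 1, 0.01 without control 2 and 0.15 without control 3.

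The spread between controls was unusual for several members. The SD of log2(RPKM + 0.1) over the 3 controls was 1.13 for Fos and 1.0 for Egr1, larger than in 99.9% of all genes tested, and it was also above 95% of genes for Atf3, Egr3, Jund, Fosb and Fosl2. For Junb and Ier2 it was 0.17 and 0.15, near the middle of all genes. Over the 10 members the median SD was 0.463 in controls and 0.204 in mutants, beside 0.132 and 0.126 over all genes tested.

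Control 1 was the lowest control for 9 of 10 members, as it was for 38.2% of all genes, and Jund was the exception. Relative to the mean of controls 2 and 3, control 1 was lower by more than 1 on the log2 scale for Fos (-1.93), Egr1 (-1.71), Atf3 (-1.14) and Egr3 (-1.07), and higher for Jund (0.86). Fos was the gene with rank 3 and Egr1 with rank 6 from the bottom of all 12034. Only 34 genes (0.283%) were that much lower in control 1, and 10 of the 34 were members or belonged to a list of 45 other immediate early genes. Those from the list included Ccn1 (-1.87), Nr4a1 (-1.42), Plk2 (-1.09), Ccn2 (-1.05) and Dusp1 (-1.01), named here after their values were seen. Over the 40 tested genes of that list the median difference was only -0.13, with 6 of 40 below -1. Control 1 was the lowest control for 21 of the 40 and the highest for 11. Ccn1 and Ccn2 encode matricellular proteins known as targets of YAP1 and TAZ. Ccn1 had 23.1, 77.5 and 91.9 RPKM in controls and 32.8, 40 and 25.5 RPKM in mutants, so that control 1 lay below all mutants while the other controls lay above.

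**Figure D4:**
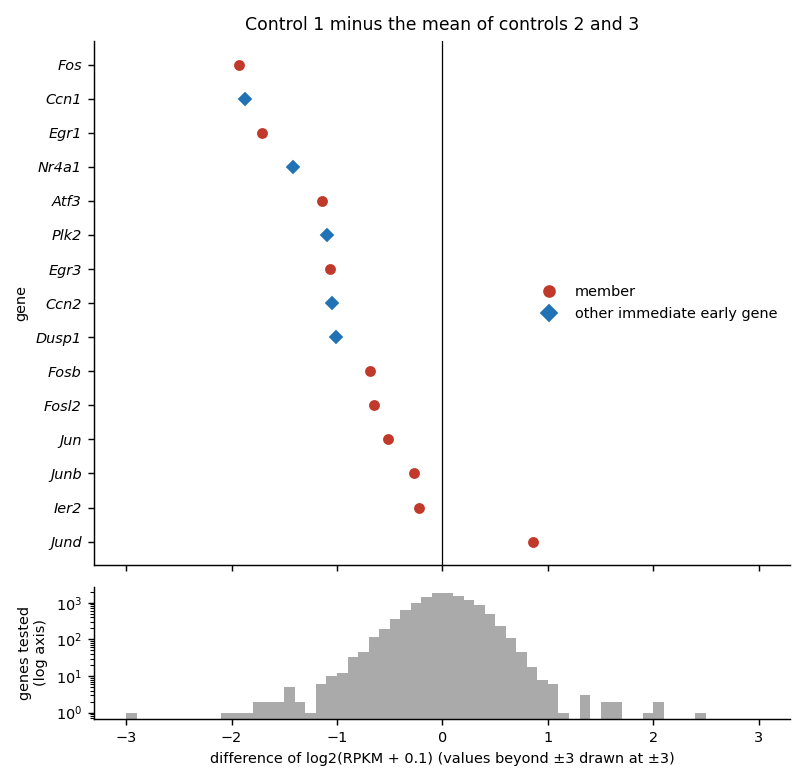
Difference of log2(RPKM + 0.1) between control 1 and the mean of controls 2 and 3 for the 10 members (circles) and for Ccn1, Nr4a1, Plk2, Ccn2 and Dusp1 (diamonds), above the same difference for all 12034 genes tested (lower panel, log axis). Fos lies at -1.93 and Ccn1 at -1.87, in the thin left tail of all genes. The diamonds were picked for low values and do not stand for the whole list of other immediate early genes.

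In mutants, iPCKO 3 was the lowest sample for 8 of 10 members, Fosl2 and Atf3 being the exceptions, compared with 44.5% of all genes. Against the mean of iPCKO 1 and 2 the difference was -0.91 for Egr1, -0.67 for Fosb and -0.61 for Fos on the log2 scale, and 0.15%, 0.53% and 0.81% of genes tested were lower still.

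Across the 6 samples Fos followed Egr1 most closely among the members (Pearson's r = 0.94 on log2(RPKM + 0.1)), then Fosb (0.88), Egr3 (0.87), Ier2 (0.85) and Junb (0.83). Jun (0.46) and Atf3 (0.49) followed it less and Jund not at all (-0.11). The points include the difference between groups and the low control 1, and 70 of the genes tested had a higher r than Egr1. The 5 genes most like Fos were Prps1, Gprc5a, Aasdh, Ctsd and Atic, with r between 0.9823 and 0.9943. Their levels moved far less than that of Fos. Gprc5a, for example, ranged from 7.77 RPKM in control 1 to 11.4 RPKM in iPCKO 2.

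Among other AP-1 and bZIP partners 1 gene was lower and 0 were higher, of 27 tested out of 29 listed, a share of 3.7% beside 6.79% of all genes tested. Their median log2 fold change was 0.06, beside 0.0 over all genes tested. Mafk, a small MAF protein without an activation domain, had 23.0 ± 0.598 RPKM in controls and fell by 0.71 on the log2 scale to 14.1 ± 2.26 RPKM (adjusted p = 0.0052). Its values were 16.2, 14.4 and 11.7 RPKM in the 3 mutants and no lower than 22.4 RPKM in any control. The most abundant of the list were Atf4, Nfe2l1 and Bach1, and none of them passed. Atf4, which drives the integrated stress response, had 62.6 ± 4.55 and 61.5 ± 3.56 RPKM. Mafk itself passed without iPCKO 1 or iPCKO 3 but not without control 1, control 2, control 3 or iPCKO 2, at adjusted p-values between 0.018 and 0.026. The list had 2 calls without control 1 or without iPCKO 1.

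Of 45 other immediate early genes 40 were tested, and 4 were higher and 0 lower, with a median log2 fold change of 0.12. This share of 10% stands beside 6.79% called and 4.11% called higher among all genes tested. Dusp5, a nuclear phosphatase of ERK, rose from 29.4, 22.4 and 23.8 RPKM in controls to 77.2, 58.4 and 55.4 RPKM in mutants. At 1.33 on the log2 scale (standard error 0.15, adjusted p = 0.00076) this is the largest change of the list. Zfp36, which encodes the RNA-destabilizing protein tristetraprolin, had 8.75, 11.0 and 9.94 RPKM in controls and 19.7, 18.4 and 16.2 RPKM in mutants and rose by 0.87 (adjusted p = 0.0016). Dusp5 and Zfp36 had their lowest mutant value in iPCKO 3. Socs3, an inhibitor of JAK/STAT signalling, had 7.11, 7.5 and 5.74 RPKM in controls and 12.6, 12.9 and 14.0 RPKM in mutants (0.95, adjusted p = 0.001). Pim1, a serine/threonine kinase induced by cytokines, had 9.13, 9.22 and 6.94 RPKM in controls and 13.7, 15.8 and 18.9 RPKM in mutants (0.93, adjusted p = 0.0041). Both were highest in iPCKO 3. The call of Pim1 was lost without control 1, control 3, iPCKO 2 or iPCKO 3, with log2 fold changes of 0.8 to 0.99 and adjusted p-values between 0.012 and 0.017. Among the most abundant genes of the list, Rhob (-0.05) and Mcl1 (0.04) did not differ detectably, and Thbs1 differed by 0.79 with an adjusted p of 0.017.

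Upstream of these genes, 28 of 29 genes on a list of SRF, its cofactors, ETS factors, NAB proteins and kinases of the MAP kinase pathways were tested, with 1 higher, 0 lower and a median log2 fold change of 0.0. The share of 3.57% stands beside 6.79% of all genes tested. Rps6ka1, which encodes the ERK-activated kinase RSK1, had 4.03 ± 0.329 RPKM in controls and rose by 1.19 on the log2 scale to 9.34 ± 1.32 RPKM (adjusted p = 0.00047). It was highest in iPCKO 3, with 10.9 RPKM. The most abundant of the list, Mapk3, Map2k1 and Map2k2 of the ERK cascade, had log2 fold changes of 0.22, -0.16 and 0.26 and did not pass.

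Markers of other cells that the lung and the immunoprecipitate could hold also differed between the groups. Markers of the labelled cells were present throughout, with 10 of 10 pericyte markers above 0 in every sample and 1533.3 ± 150.9 and 1336.7 ± 130.5 RPKM of Pdgfrb in controls and mutants. Their levels shifted both ways, with Cspg4, Kcnj8 and Abcc9 higher (log2 fold changes 1.06, 1.03 and 1.15) and Notch3, Rgs5 and Mcam lower (-0.94, -1.15 and -1.04). Of 10 leukocyte markers 7 were called higher in mutants, with summed levels of 72.7 to 93.6 RPKM in controls and 157.4, 206.5 and 289.4 RPKM in iPCKO 1, 2 and 3. Of 10 neutrophil markers 6 were called higher, with sums of 87.1 to 129.2 RPKM in controls and 448.9, 1989.4 and 4948.8 RPKM in mutants. Platelet markers were called higher in 5 of 5 tested (5.72 to 7.42 RPKM, against 21.6 to 64 RPKM) and macrophage markers in 2 of 9 (102.7 to 174.4, against 337.2 to 525.9 RPKM). Among all genes tested 6.79% were called and 4.11% called higher. Called or not, log2 fold changes were positive for 10 of 10 leukocyte, 10 of 10 neutrophil, 9 of 9 macrophage and 5 of 5 platelet markers, beside 6015 of 12034 genes tested. They were also positive for 6 of 7 erythrocyte markers, with a median of 0.2. Erythrocyte markers were called in 0 of 7. Their sum was highest in iPCKO 1, but in iPCKO 2 it was 1370.3 RPKM, below the 2222.2 to 2783.4 RPKM of controls. With a sample left out, 2 to 8 leukocyte, 1 to 10 neutrophil, 0 to 4 macrophage and 3 to 5 platelet markers passed. The neutrophil count was 10 without iPCKO 1, 4 without iPCKO 3 and 1 without any of the others, and the leukocyte count was 2 without control 1 or control 3 and 4 without iPCKO 2. No marker of these 5 lists was at 0 in any sample.

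Outside the blood, epithelial markers summed to 571.2 to 659.9 RPKM in controls and 841.0 to 893.3 RPKM in mutants, with 2 of 10 called higher. Of 7 smooth muscle markers Actg2 and Cnn1 were higher (1.59 and 1.11) and Lmod1 was lower (-0.97). Endothelial markers summed to 143.1 to 153.8 RPKM and 148.1 to 162.4 RPKM, with 1 of 8 called, and 0 of 8 fibroblast markers were called.

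Neutrophil marker RNA was 11 times as high in iPCKO 3 as in iPCKO 1. Egr3, Fosb, Junb and Ier2 had their lowest mutant value in iPCKO 3, as 44.5% of all genes tested did. The part of RNA from blood or other cells in any result on these genes was not tested.

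**Figure D5:**
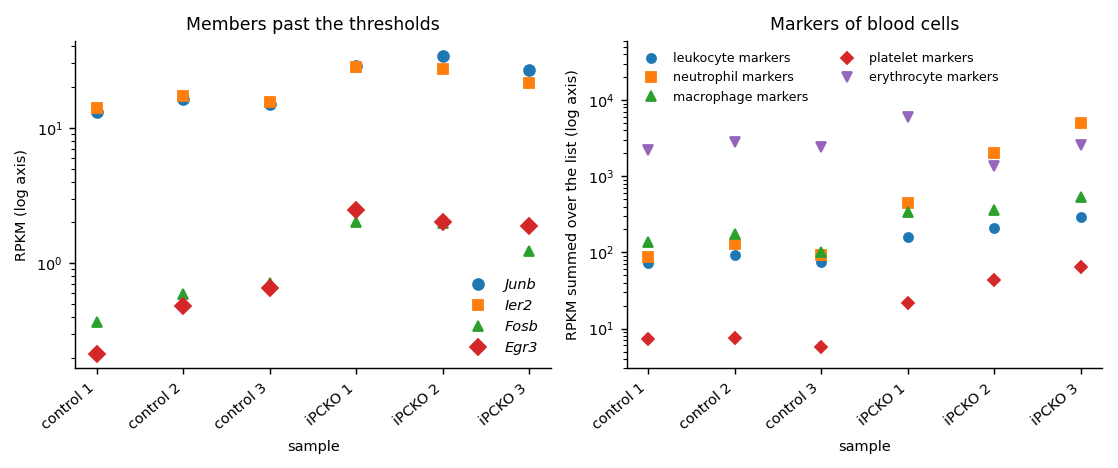
RPKM of the 4 members past the thresholds (left) and RPKM summed over marker lists of blood cells (right) in each sample, both on log axes. Neutrophil markers go from 448.9 RPKM in iPCKO 1 to 4948.8 RPKM in iPCKO 3, and the 4 members range in mutants from 1.22 RPKM for Fosb to 34.1 RPKM for Junb.

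Across the series, sample-to-sample correlations of log2(RPKM + 0.1) were 0.977 to 0.992 within groups and 0.929 to 0.962 between groups. The steps left by whole reads in low values imply 17.4 to 34.67 M mapped reads in controls and 14.23 to 39.58 M in mutants, with iPCKO 3 the shallowest. Yap1 had 12.4 ± 0.859 RPKM in controls and fell by 1.12 on the log2 scale to 5.61 ± 0.314 RPKM (adjusted p = 0.00017), while Wwtr1 had 60.4 ± 9.48 and 62.0 ± 1.63 RPKM. A gene's value covers all its exons, so reads of the deleted exons could not be separated.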

How the data were processed

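Lungs had been perfused with a cold buffer containing cycloheximide, which holds ribosomes on mRNA, and snap-frozen before immunoprecipitation. Immediate early transcripts can respond to handling in that time. Libraries were stranded and made from total RNA. Reads were aligned by the authors to mm10 (GRCm38) in TopHat, and HTSeq 0.6.1 gave the counts per gene that they tested in DESeq2. The authors deposited RPKM, 1 value per gene and sample, and the exon length they used is not given in the sources used here.

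Symbols came from GENCODE M21. RPKM were tested as log2(RPKM + 0.1) with limma 3.58.1 (R 4.3.3; eBayes with intensity trend, Benjamini-Hochberg adjustment over all genes tested) on genes reaching 1 RPKM in 3 or more of the 6 samples, and the test was checked on simulated data. Fold changes are iPCKO minus control on this scale, which understates changes of low genes. A gene was called where the adjusted p-value was below 0.01 and the log2 fold change beyond ±0.5. Single values had exact two-sided permutation tests. Depth was read from the steps in low values of genes with 1 transcript, of which 75.4% to 77.1% lay within 0.02 reads of a whole number. This was too few to rebuild counts, so reads are approximate and carry counting error only.

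Samples were grouped by genotype in the labels, 3 per group, and no batch is given in them. Replicate numbers were not used for pairing. Deviations of same-numbered samples correlated with r = 0.238, 0.092 and 0.022, inside the range for differently numbered samples (-0.298 to 0.273). Members and gene lists were chosen with earlier results of these data known. The genes named are all members, list genes past the thresholds with the 3 most abundant of each list, Yap1 and Wwtr1, defining cell type markers, and the 5 genes most correlated with Fos. Others are said to have been chosen after their values were seen, and 1 gene of a list is not reported here. Alternatives were the replicate block, other pseudocounts (1 and 0.01), filters, scalings, sample weights, no trend, other thresholds and each sample left out.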

Additional observations from a re-analysis of the deposited data

How the results depend on the processing

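Counts past the thresholds and log2 fold changes were recomputed with one choice changed at a time, and shares of the FOS and JUN sum with a sample left out. Ratios, correlations, spreads, single-library differences and motif shares were not recomputed. Junb passed in each of 15 alternative fits (0.9 to 1.1, adjusted p between 3.1e-05 and 0.0069). Over all genes, 1590 passed with sample weights, 1313 at an adjusted p below 0.05, 411 at an absolute log2 fold change above 1 and 382 to 899 with a sample left out. The number of members past the thresholds was 2 without a filter or with at least 1 RPKM in all 6 samples, which removes Fosb and Egr3, and 1 to 3 with a sample left out, the fewest without iPCKO 2. Fosb no longer passed without a filter (1.49), with quantile normalization (1.27) or in most fits with a sample left out (1.25 to 1.71). Ier2 no longer passed without a filter or without an intensity trend (0.71 in both) and ranged from 0.63 to 0.83 with a sample left out, and Egr3 from 1.74 to 2.37. With a pseudocount of 1 RPKM both Egr3 (1.12) and Fosb (0.81) were smaller and still passed. Jund passed with sample weights (0.60). With a sample left out Fosl2 ranged from -0.05 to 0.3, Atf3 from -0.49 to 0.15, turning to 0.01 and 0.15 without control 2 or control 3, and the difference in the Jund share from -5.14 to 7.49 percentage points, turning to 7.49 without control 1 and 0.87 without iPCKO 2. Other bZIP partners had 6 calls with sample weights or at an adjusted p below 0.05, 0 at an absolute log2 fold change above 1 and 0 to 2 with a sample left out. Other immediate early genes had 11 with sample weights and 1 at the larger fold change, and upstream factors 4 with sample weights, 3 at an adjusted p below 0.05 and 1 to 2 with a sample left out. The causes of these shifts were not tested.

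With the replicate number as a block 922 genes and 3 members passed, Fosb being lost (1.49, adjusted p = 0.014), and 4 other bZIP partners and 7 other immediate early genes passed. Control and mutant samples are known to share only a number, and the labels do not say whether same-numbered samples belong together. Which of the fits, with or without the block, suits the samples better therefore cannot be decided here.

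With 3 samples a group, limma p-values rest on the spread between these samples, eased toward that of other genes. Differences such as that of Fos, at 0.71 to 1.77 with a sample left out, were not resolved. Fosb and Egr3 rest on 45 and 19 reads in their lowest library. Gene-level RPKM cannot separate isoforms, strands or recombined from other exons.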

Other observations

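Among genes outside the report's comparisons, chosen after their values were seen, Egr2, a relative of Egr1 and Egr3 that was too low to be tested, was at 0.269, 0.371 and 0.433 RPKM in controls and at 0.959, 1.05 and 0.475 RPKM in mutants. Every mutant value was above every control value, but iPCKO 3 lay close to control 3 and stands for about 23 reads at the annotated exon length. Groups did not overlap in 35.5% of all genes tested. Arc, Egr4 and Ptgs2, further classical immediate early genes, stayed at or below 0.338 RPKM in all samples.

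Heat shock genes were examined as a separate stress list. Of 12 tested, 1 was higher and 0 lower in mutants, Hspb1, which encodes the small chaperone HSP27, with 5.02, 5.62 and 4.14 RPKM in controls and 12.9, 14.9 and 12.5 RPKM in mutants (log2 fold change 1.44, adjusted p = 0.00026, limma). The share called is 8.33%, beside 6.79% of all genes tested. The most abundant, Hsp90ab1, had 239.5 ± 1.81 RPKM and 271.2 ± 13.4 RPKM in controls and mutants (0.18, adjusted p = 0.27). The list summed to 589.6 RPKM in control 1, against 696.0 and 700.5 RPKM in controls 2 and 3. Mutants summed to between 697.2 and 778.0 RPKM, so control 1 had the lowest sum here as well. By gene, it was the lowest control for 7 of 12 and the highest for 2. Hspa8 had 88.3, 147.1 and 142.5 RPKM in controls and Hspa1a 4.34, 4.04 and 4.84 RPKM, both named after their values were seen. Among mutants iPCKO 3 was the lowest for 12 of 12 genes, beside 44.5% of all genes tested.

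Cirbp, which encodes a cold-inducible RNA-binding protein and was looked up after control 1 had been seen to stand apart, went the other way. It had 48.7 RPKM in control 1, 19.7 and 18.8 RPKM in controls 2 and 3, and 32.0, 35.3 and 39.8 RPKM in mutants. What these values have to do with the immediate early transcripts that were low in control 1 was not tested.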
